A study of Drosophila melanogaster with 20 samples.

Results

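The genes bru-3, heph, orb2 and sm encode RNA-binding proteins known from neurons, and they were followed through all 5 comparisons of mated with virgin Drosophila melanogaster females in this series. They are 4 genes, each read by 1 row of an array of 15744 rows. They were selected on the values of the brain experiment: all 4 stand in the study's list of leading genes in dissected brains 24 h post-mating, on its lower side, and in none of its head lists. The brain values are therefore given as a description with no test, and the head values, which played no part in the choice, are tested.

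RNA-binding proteins of these families act on messenger RNA after transcription, by steering splicing, transport, stability and translation. Bruno-3 (bru-3, bru3 in current annotation) belongs to the Bruno/CELF family of RNA recognition motif proteins. Hephaestus (heph) is the fly polypyrimidine tract binding protein, a regulator of alternative splicing. Smooth (sm) is a relative of the hnRNP L splicing factors and is known in flies for its role in axons of chemosensory neurons. Orb2 is a CPEB protein, which binds the 3′ ends of messenger RNAs, controls their translation and is needed in flies for long-term memory of courtship.

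Each array set RNA of mated Canton S females directly against RNA of virgin Canton S females of the same age, in 5 experiments of 4 arrays: heads at 0-2, 24, 48 and 72 h post-mating, and dissected brains at 24 h. The mated females were 5 days old when placed for mating with w; P[UAS-dj-GFP] males, 10 females with 20 males, and only those carrying strong GFP in the abdomen were kept. For the 0-2 h experiment the virgins had met no males and were anaesthetized with CO2 as the mated females were. A head sample pooled about 100 heads and gave 20 µg of total RNA for directly labelled cDNA, whereas a brain sample pooled 20 brains whose RNA was amplified before labelling. Head and brain values thus differ in tissue and in labelling at once, and the 2 cannot be told apart. In such pooled tissue, fewer cells of a type and less RNA per cell cannot be told apart either. In every experiment the first pair of replicates had mated RNA in Cy3 and the second pair (3 and 4) had it in Cy5. The deposited log2 ratios of mated over virgin already run in 1 direction. At 72 h the arrays of replicates 2 and 4 stood apart from the others of their dye orientation. Across rows, the deviations of replicate 4 (mated RNA in Cy5) from the 72 h mean correlated with those at 0-2 h at 0.28 for both arrays with mated RNA in Cy3 and at -0.25 and -0.31 for those in Cy5. For replicate 2 (mated RNA in Cy3) these values were -0.20 and -0.24, and 0.19 and 0.25. A head array held values for 1818 to 6466 rows and a brain array for 5840 to 6399. The other cells are empty, and with 2 to 4 values behind a mean the precision is low. The table holds ratios and no levels, so a labelled tissue could not be checked for the presence of its defining markers.

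The genes bru-3, heph and orb2, lie on plates of the print that held the same gene in all experiments. The row of sm held sm at 48 and 72 h and in brains, and sm was not analysed here at 0-2 and 24 h.

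In brains 24 h post-mating all 4 genes had lower RNA abundance in mated than in virgin females on every array. The mean ratios of mated over virgin were 0.639 for bru-3, 0.641 for heph, 0.660 for orb2 and 0.621 for sm. Of the 5078 rows with values on all 4 brain arrays, 360 (7.09%) were lower on all of them, and nothing is read from the 4 genes being among these, since the same values chose them. No row passed an adjusted p of 0.05 in brains with limma's moderated test and Benjamini-Hochberg adjustment (0 of 6498, 0%), while 152 lower and 216 higher rows had an unadjusted p under 0.05. Ordered by that p, the 4 genes stood at places 16 (bru-3), 40 (sm), 55 (heph) and 70 (orb2) of 6498. The lower row of the study's list that came last in this order was CG32169 at place 104, with a mean log2 ratio of -0.51. The next lower row, at place 108 and outside the list, had -0.60.

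The log2 ratios of bru-3 in brains were -0.73, -0.84, -0.52 and -0.50 in replicates 1 to 4, a mean of -0.65 ± 0.17 (SD, n = 4). Its arrays were the most alike of the 4 genes, and the lower values were those with mated RNA in Cy3, with a mean of -0.78 there and -0.51 with mated RNA in Cy5. The heph values were -0.37, -0.44, -0.57 and -1.18, a mean of -0.64 ± 0.37 (SD, n = 4). For heph the order of the dyes was the other way round, with a mean of -0.41 with mated RNA in Cy3 and -0.88 with mated RNA in Cy5.

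The orb2 values were -0.57, -0.16, -0.69 and -0.97, a mean of -0.60 ± 0.34 (SD, n = 4). The sm values were -0.72, -0.22, -0.65 and -1.16, a mean of -0.69 ± 0.39 (SD, n = 4). Both genes were nearest 0 in replicate 2 and lowest in replicate 4, and replicate 4 was also the lowest for heph. Their means with mated RNA in Cy3 and in Cy5 were -0.37 and -0.83 for orb2, and -0.47 and -0.91 for sm. The 4 gene means lay within 0.09 of each other on the log2 scale, closer than the SD of any of them, so that their order is not resolved.

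**Figure D1:**
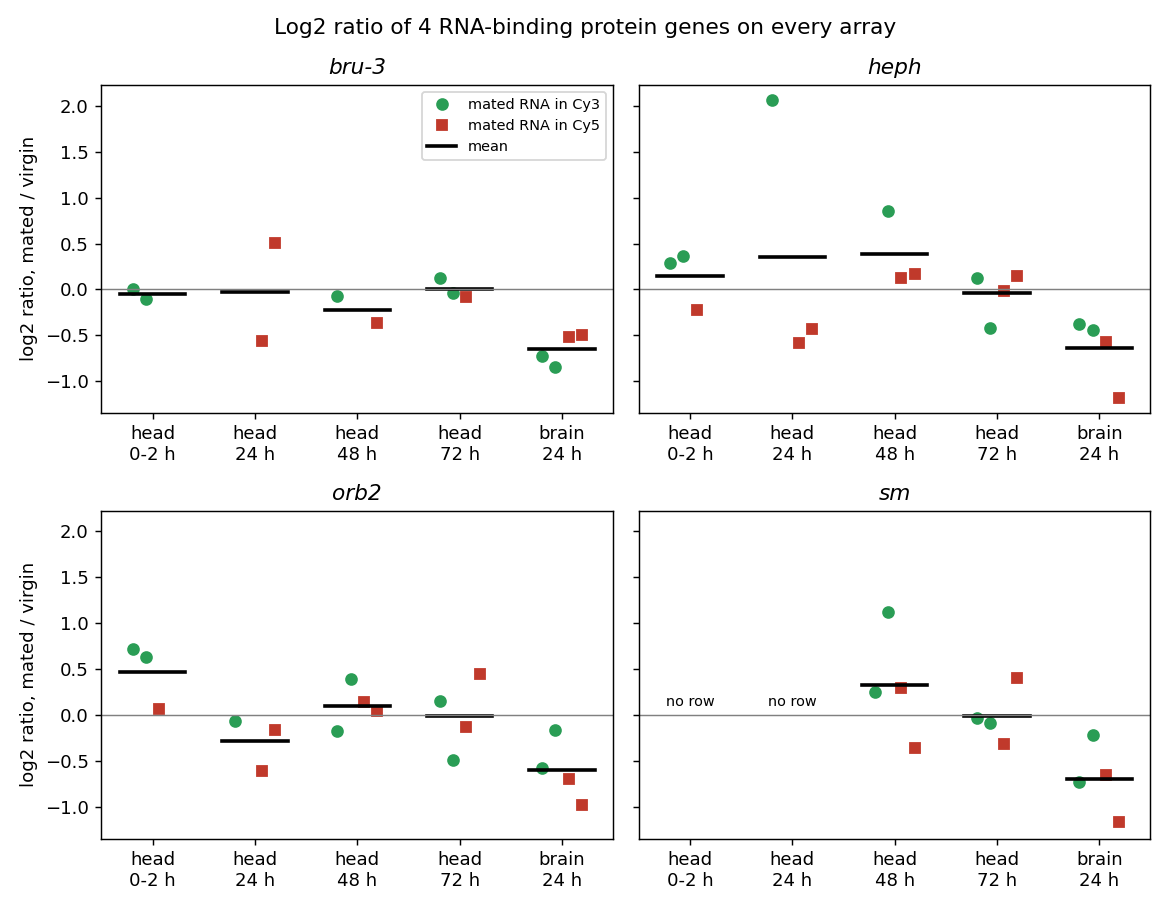
Log2 ratio of mated over virgin (vertical axis) for bru-3, heph, orb2 and sm on every array with a value, by experiment (horizontal axis); circles are arrays with mated RNA in Cy3, squares those with mated RNA in Cy5, and bars are means. All 16 brain values lie below 0, between -1.18 and -0.16, whereas the values in heads lie on both sides of 0.

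Set against all rows of the same array, the 4 genes stood in the lower part of each brain array but seldom at its end. The log2 ratio of bru-3 stood at percentiles 3.99, 1.13, 12.0 and 18.6 of the values on replicates 1 to 4. For heph the percentiles were 22.7, 12.6, 10.2 and 3.46. For orb2 they were 10.4, 36.2, 6.74 and 5.79, and for sm 4.18, 30.7, 8.06 and 3.61. On replicate 2, where orb2 and sm were well inside the bulk of the values, bru-3 was at its most extreme.

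**Figure D2:**
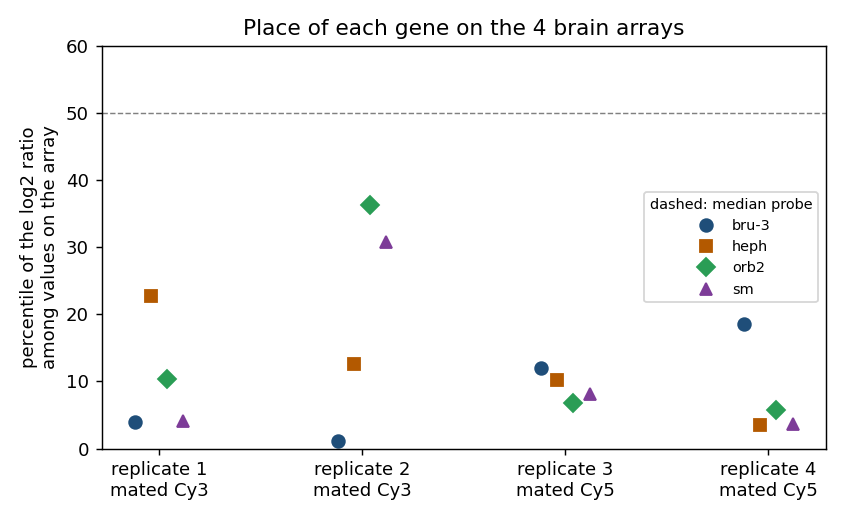
Percentile of each gene's log2 ratio among all values on the same brain array (vertical axis) for the 4 brain arrays (horizontal axis); the dashed line is the median row. The points run between percentiles 1.13 and 36.2, and bru-3 and orb2 are farthest apart on replicate 2.

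In heads, no gene of the 4 passed an adjusted p of 0.05 at any time with limma over all rows with at least 2 values. The background was low as well. At 0-2 h 3 of the 3871 rows passed (0.0775%). The 24 h arrays gave 1 row among 4140 (0.0242%), the 48 h arrays 74 among 2981 (2.48%) and the 72 h arrays 5 among 6416 (0.0779%). At an unadjusted p under 0.05 the count was 1, orb2 at 0-2 h, among the 14 gene and time combinations tested, a share near the background. Of all rows, 6.33% had such a p at 0-2 h, 7.87% at 24 h, 15.1% at 48 h and 8.49% at 72 h. The median of the gene means was 0.14 at 0-2 h (3 genes), -0.03 at 24 h (3 genes), 0.21 at 48 h (4 genes) and -0.01 at 72 h (4 genes) on the log2 scale. Over all rows tested the medians were 0.01, 0.03, 0.01 and 0.01.

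The translational regulator orb2 had values on 14 of the 16 head arrays, more than bru-3 or heph. Its log2 ratios were 0.72, 0.63 and 0.06 at 0-2 h in replicates 1 to 3, all above 0, with a mean of 0.47 (SE 0.19, limma adjusted p = 0.788, unadjusted p = 0.0483). At 24 h they were -0.06, -0.61 and -0.16 in replicates 1, 3 and 4, all below 0, with a mean of -0.28 (SE 0.21, limma adjusted p = 0.770). The difference of 24 h minus 0-2 h was -0.75 (SE 0.26, limma adjusted p = 0.164, unadjusted p = 0.0123). Of all rows, 21 of 1621 (1.30%) passed the adjusted threshold in that difference, and 15.9% had an unadjusted p under 0.05. The dyes were not balanced in it: orb2 had 2 arrays with mated RNA in Cy3 (mean 0.67) and 1 in Cy5 at 0-2 h, but 1 in Cy3 and 2 in Cy5 (mean -0.39) at 24 h. With a dye term the difference was -0.72 (limma adjusted p = 0.201). At 48 h the orb2 values were -0.17, 0.39, 0.14 and 0.04, and at 72 h 0.15, -0.49, -0.12 and 0.44, on both sides of 0 at each time. The means there were 0.10 (SE 0.15) and -0.0040 (SE 0.16).

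The splicing regulator heph gave values on 13 head arrays, which were spread more widely than those of the other genes. Its log2 ratios were 0.29, 0.36 and -0.22 at 0-2 h in replicates 1 to 3, and 2.06, -0.58 and -0.43 at 24 h in replicates 1, 3 and 4. The single array with mated RNA in Cy3 at 24 h thus stood far above the pair with mated RNA in Cy5, and without it the 24 h mean was -0.51, against 0.35 with it. At 48 h the values were 0.86, 0.12 and 0.17 in replicates 2 to 4, all above 0, with a mean of 0.38 (SE 0.20, limma adjusted p = 0.436). At 72 h they were 0.13, -0.42, -0.02 and 0.14, with a mean of -0.04 (SE 0.13, limma adjusted p = 0.947). Over all times heph was above 0 on 5 of 6 head arrays with mated RNA in Cy3 and on 3 of 7 with mated RNA in Cy5. The Cy3 array below 0 was replicate 2 at 72 h, and replicate 4 at 72 h was among the Cy5 arrays above 0. These are the 72 h arrays described above as standing apart from the others of their dye orientation.

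The gene bru-3 had a thin record in heads, with values on 9 of 16 arrays. At 0-2 h it was measured only with mated RNA in Cy3, at 0.01 and -0.11. At 24 h it was measured only with mated RNA in Cy5, at -0.56 and 0.50, so that a dye bias could not average out at either time. Its values were -0.08 and -0.37 at 48 h in replicates 1 and 4, and 0.13, -0.04 and -0.08 at 72 h in replicates 1 to 3. The 72 h mean was 0.0046 (SE 0.13, limma adjusted p = 0.997), and the 48 h mean was -0.22 (SE 0.22, limma adjusted p = 0.712). Of the 9 head values, 6 were below 0, and the lowest, -0.56, lay within the range of the brain values.

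For sm, the hnRNP L relative, the values at 48 h were 0.25, 1.13, 0.29 and -0.36, and at 72 h -0.03, -0.09, -0.31 and 0.40. The 48 h mean was 0.33 (SE 0.23, limma adjusted p = 0.562) and rested mostly on replicate 2, without which it was 0.06. The 72 h mean was -0.0072 (SE 0.13, limma adjusted p = 0.997). Over replicates 1 and 3 alone, without the arrays that stood apart, the 72 h means were -0.17 for sm, 0.056 for heph, 0.013 for orb2 and 0.025 for bru-3. The sm values overlapped between the times, and the difference of 72 h minus 48 h was -0.33 (SE 0.28, limma adjusted p = 0.717).

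Since the heads hold the brain, the head intervals were set beside the brain means, with no test of the difference because the brain values chose the genes. At 24 h the 95% intervals of the head means from limma were -0.96 to 0.91 for bru-3, -1.02 to 1.73 for heph and -0.79 to 0.24 for orb2. Each of them contains the brain mean of its gene, so the head arrays of that time do not resolve a ratio of that size. At 72 h, the head time with the most values, the intervals were -0.30 to 0.30 for bru-3, -0.33 to 0.25 for heph, -0.36 to 0.35 for orb2 and -0.31 to 0.30 for sm, and each brain mean lies below its gene's interval. At 48 h the brain mean lay below the interval for heph (-0.09 to 0.86), orb2 (-0.24 to 0.44) and sm (-0.19 to 0.85), and inside it for bru-3 (-0.75 to 0.31). Head arrays below the brain mean of the same gene numbered 0 of 9 for bru-3, 0 of 13 for heph, 1 of 14 for orb2 and 0 of 8 for sm. The array in question, at -0.61, was replicate 3 at 24 h. Low brain values chose the genes, so nothing is read from head values standing above them. The heads at 48 and 72 h also differ in time from the brains at 24 h.

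**Figure D3:**
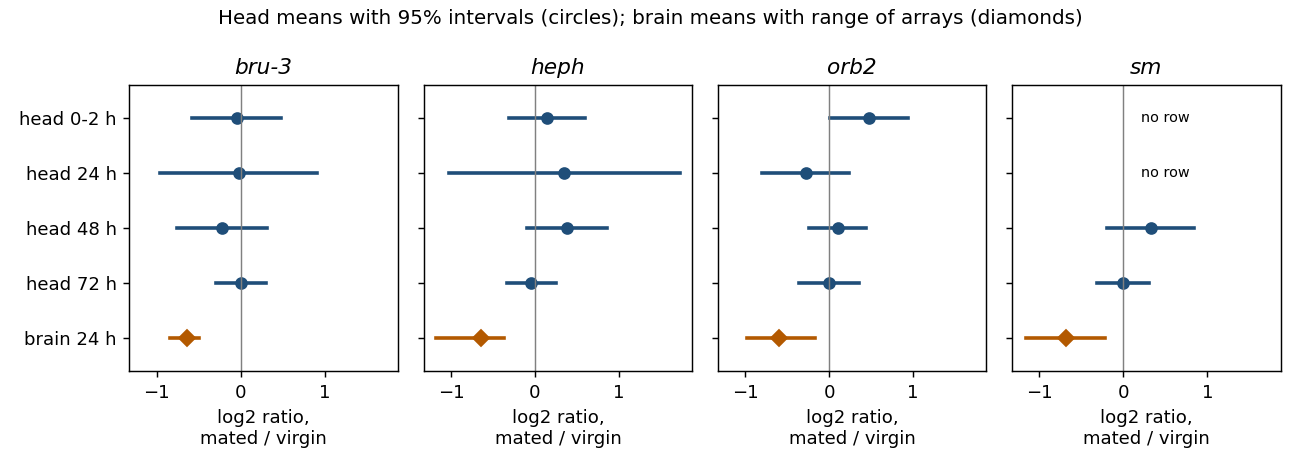
Mean log2 ratio of mated over virgin (horizontal axis) for each gene, by experiment (vertical axis); circles are head means with their 95% intervals from limma, diamonds are brain means with the range over the 4 brain arrays. The head intervals contain 0 in 13 of 14 cases, the exception being orb2 at 0-2 h, and at 72 h they all lie above the brain means.

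Over the 4 head times together the mean log2 ratio was -0.07 for bru-3 (SE 0.11, 9 arrays), 0.21 for heph (SE 0.18, 13 arrays) and 0.07 for orb2 (SE 0.09, 14 arrays). None passed the adjusted threshold in limma, with adjusted p of 0.794, 0.565 and 0.714, where 132 of 1621 rows (8.14%) did. Over the heads at 48 and 72 h, the times at which sm could be read, the means were -0.11 (bru-3), 0.17 (heph), 0.05 (orb2) and 0.16 (sm). Again none passed in limma, with adjusted p of 0.653, 0.474, 0.858 and 0.599, where 181 of 2958 rows (6.12%) did.

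None of the 18 differences between head times tested for bru-3, heph and orb2 passed the adjusted threshold in limma, and that of orb2 between 24 h and 0-2 h was the only one with an unadjusted p under 0.05. Such a p was as common or commoner over all 1621 rows, with 15.9% for 24 h minus 0-2 h, 14.1% for 48 h minus 0-2 h, 5.74% for 72 h minus 0-2 h, 6.97% for 48 h minus 24 h, 9.81% for 72 h minus 24 h and 8.20% for 72 h minus 48 h. The adjusted p ran between 0.881 and 0.994 for bru-3, between 0.889 and 0.994 for heph and between 0.164 and 0.953 for orb2. Of all 1621 rows, 1.54% passed for 48 h minus 0-2 h, 0.0617% for 72 h minus 0-2 h, 0% for 48 h minus 24 h, 0.370% for 72 h minus 24 h and 0.247% for 72 h minus 48 h.

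Of the pairs among the genes, heph and orb2 had values on 13 head arrays in common and the same sign on 11 of them. Pearson's r was 0.36 (permutation p = 0.234, 0.390 after Benjamini-Hochberg adjustment over 5 pairs) and Spearman's rho was 0.68 (permutation p = 0.0128, adjusted 0.0641). The permutations took all head arrays as exchangeable, although arrays share head times and dye orientations. These p therefore do not separate a relation of the genes from effects of time or dye. Without the 2 arrays farthest from the heph median, one of which holds the 2.06, r was 0.89. After the mean of each head time was taken off, r was 0.55. With mated RNA in Cy3 it was 0.07 over 6 arrays, and with mated RNA in Cy5 0.82 over 7. This relation did not pass the adjustment by r or by rho. Of 903 rows with enough shared arrays, 219 (24.3%) had a Pearson's r with heph at least as high as 0.36. No such share was computed for rho.

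**Figure D4:**
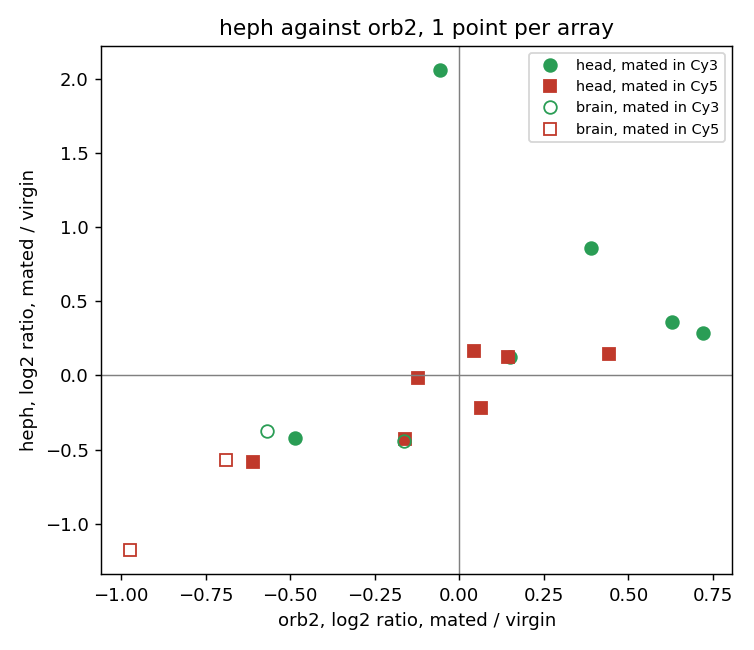
Log2 ratio of heph (vertical axis) against that of orb2 (horizontal axis), 1 point per array with both values; filled points are heads and open points brains, circles have mated RNA in Cy3 and squares in Cy5. One head array, with heph at 2.06 and orb2 at -0.06, stands apart from the others.

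The other pairs were orb2 with sm (r = 0.60 over 8 head arrays, exact permutation p = 0.117), heph with sm (r = 0.76 over 7, exact permutation p = 0.0766), bru-3 with orb2 (r = 0.23 over 9, exact permutation p = 0.570) and bru-3 with heph (r = 0.02 over 8, exact permutation p = 0.971). The rho values were 0.64 (exact permutation p = 0.0962), 0.39 (p = 0.396), 0.23 (p = 0.552) and -0.02 (p = 0.977) in the same order. The adjusted p of these r values were 0.294, 0.294, 0.712 and 0.971, and those of the rho values 0.240, 0.659, 0.690 and 0.977. Without the 2 farthest arrays r was 0.69, 0.36, 0.10 and -0.11, and within head times 0.58, 0.73, 0.45 and 0.12. The pair bru-3 and sm shared 5 arrays, too few for a correlation.

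Over all arrays, brains included, the named rows most like each gene were sought by Pearson's r, over at least 12 shared arrays. The arrays share dye orientation and tissue, and the brain values that put several of these rows on 1 list enter r, so these are descriptions. For orb2 they were corto, a chromatin protein (r = 0.92, 16 arrays), CG2225 (0.89, 15 arrays) and sNPF, the precursor of short neuropeptide F (0.87, 16 arrays). All of these came from the head list of 0-2 h, and the 0-2 h values that chose them enter r with orb2. For sm they were sNPF (0.86), orb2 (0.85) and cpx, the synaptic vesicle release regulator complexin (0.82), each over 12 arrays. For heph they were Ptp99A, a receptor tyrosine phosphatase (0.89, 14 arrays), CG13908 (0.86, 13 arrays) and corto (0.82, 15 arrays). For bru-3 likeness was weaker: cac, a subunit of a voltage-gated calcium channel (0.67, 12 arrays), Pkc98E, a protein kinase C (0.52, 12 arrays), and Nop60B, a pseudouridine synthase (0.52, 13 arrays). The median r over the named rows compared was -0.28 for orb2 (177 rows), -0.63 for sm (79 rows), -0.36 for heph (172 rows) and -0.28 for bru-3 (123 rows). With the mean of each experiment taken off, r with the first of them was 0.72 for orb2, 0.77 for sm, 0.59 for heph and 0.44 for bru-3. The other rows named had 0.64 and 0.69 for orb2, 0.69 and 0.83 for sm, and 0.44 and 0.46 for heph. For bru-3 they were near 0, at 0.069 for Pkc98E and 0.097 for Nop60B.

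Other RNA-binding and mRNA processing genes named by the study's lists had other values. Of 8 such genes, 7 could be read in at least 1 experiment, and CG12343 was matched to no row. The nearest to the 4 genes was CG32169 (Rbp6 in current annotation), an RNA recognition motif protein from the same brain list, with a brain mean of -0.51 ± 0.23 (SD, n = 4). The study itself groups CG32169 with bru-3, heph and orb2 under mRNA binding, and places sm under axon guidance. In heads the CG32169 means were -0.32 at 48 h (SE 0.20, limma adjusted p = 0.509) and -0.03 at 72 h (SE 0.10, limma adjusted p = 0.957). CG6422 (Ythdf), a reader of methylated adenosine in RNA that the 0-2 h list named, was below 0 on the 4 brain arrays, with a mean of -0.25 ± 0.14 (SD, n = 4). Its head mean at 0-2 h was 0.71 over 2 arrays, the values that put it on the list. At the times that did not name it, CG6422 had head means of -0.26 at 24 h (3 arrays), -0.27 at 48 h (below 0 on 4 of 4) and 0.14 at 72 h (2 arrays).

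Further splicing factors were also read. U2af38, the small subunit of the factor that marks the 3′ splice site, had a brain mean of 0.02 ± 0.27 (SD, n = 4), and 1.13 over 2 head arrays at 0-2 h, where the list named it. Its other head means were -0.11 at 24 h, -0.45 at 48 h and 0.22 at 72 h, with values on both sides of 0 each time. CG13900 (Sf3b3), a subunit of the U2 snRNP, was above 0 on every head array with a value. At 0-2 h, the experiment that named it, it had 1.17 and 0.89, and at the other times 0.40 and 0.48 at 24 h, 0.14, 0.14, 0.72 and 0.63 at 48 h, and 0.46, 0.33 and 0.48 at 72 h. Over the heads at 48 and 72 h, which did not name it, CG13900 was higher in mated females by 0.42 on the log2 scale (SE 0.10, 7 arrays, limma adjusted p = 0.0364). That call was lost in 6 of 8 fits that left out 1 array, with an adjusted p of up to 0.155, and with a replicate block (0.47, limma adjusted p = 0.0809). The fit of heads at 48 and 72 h was added after the data were seen, and 181 of 2958 rows (6.12%) passed in it. Of these other RNA-binding and mRNA processing genes, it is given only for CG13900 and CG32169 (-0.17, limma adjusted p = 0.398). CG13900 had no brain value. The spliceosome core gene prp8 (-0.71 at 0-2 h, 2 arrays), the RNA helicase gene Ddx1 (1.05 at 72 h, 2 arrays) and the piRNA pathway gene mael (1.08 in brains, 2 arrays) were read on few arrays in the experiments that named them. Elsewhere prp8 had a mean of 0.02 at 24 h (3 arrays) and Ddx1 of 0.02 in brains (2 arrays).

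**Figure D5:**
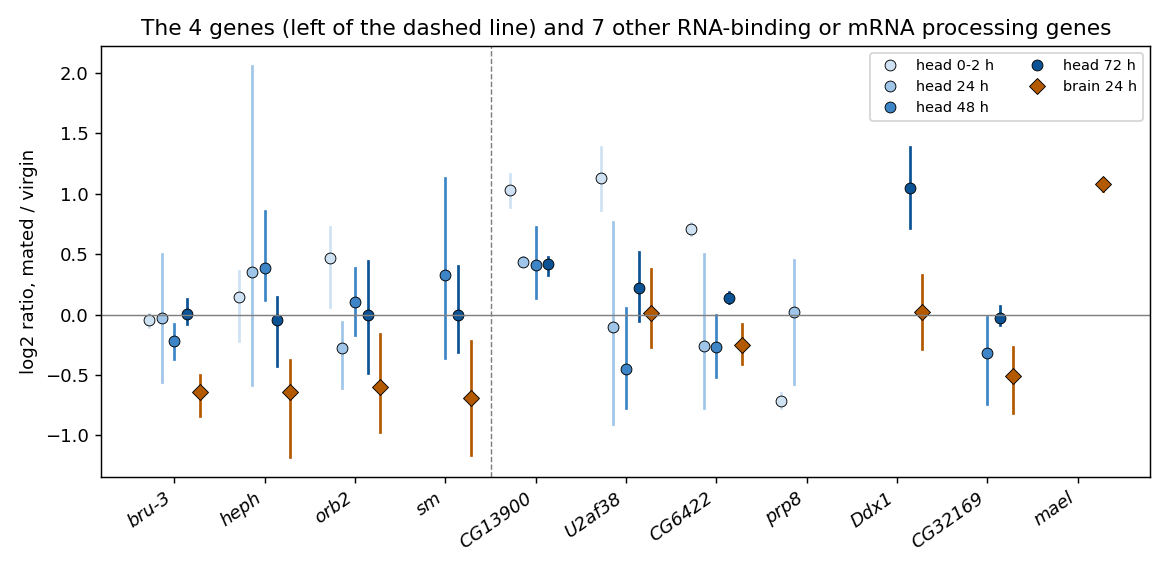
Mean log2 ratio of mated over virgin (vertical axis) for the 4 genes and for 7 other RNA-binding or mRNA processing genes (horizontal axis), by experiment; circles are heads, diamonds brains, lines span the arrays, and means of at least 2 values are drawn. The brain diamonds of the 4 genes lie between -0.69 and -0.60, with CG32169 at -0.51, while U2af38 and Ddx1 lie at 0.02.

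Neuronal genes from the lower side of the same brain list were measured for comparison: cpx, cac, Sh, Ca-beta, Teh1, Ptp99A, Pkc98E, Pka-C1 and dac. Being chosen there, all 9 were below 0 in brains. Their means lay between -0.97 (Sh, a potassium channel, 2 arrays) and -0.53 (Pka-C1, the catalytic subunit of protein kinase A), a range that holds the 4 RNA-binding genes. The next lowest after Sh was cpx at -0.74 (4 arrays). In heads 0 of 24 gene and time combinations had an unadjusted p under 0.05 in limma, against the 6.33 to 15.1% of all rows given above for the head times. Their medians in heads were -0.04 at 0-2 h (5 genes), -0.12 at 24 h (5 genes), 0.14 at 48 h (5 genes) and -0.06 at 72 h (9 genes).

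The neuron markers cac, cpx, Sh, Ca-beta and Teh1 differed by dye orientation in heads at 0-2, 24 and 48 h but not at 72 h. Their mean on an array was between -0.48 and 1.15 with mated RNA in Cy3, below 0 on 1 of 7 arrays, and between -0.91 and -0.01 with mated RNA in Cy5, below 0 on 8 of 8. At 72 h the means were 0.010 and -0.48 in replicates 1 and 2, with mated RNA in Cy3. They were -0.15 and -0.0062 in replicates 3 and 4, with mated RNA in Cy5. Replicates 2 and 4 are the 72 h arrays described above as standing apart from the others of their dye orientation. In brains the mean of the neuron markers on an array was between -0.88 and -0.42 in both orientations. Among markers of other tissue, the muscle genes Act88F, Act57B and Tm1 had brain means of 0.83, 0.79 and 0.53, and the mean of the 3 on a brain array was between 0.32 and 1.04. In brains the median of the gene means was -0.49 for fat body markers (5 of 6 lower), 0.66 for eye (2 of 3 higher) and 1.04 for immune response (4 of 4 higher). The fat body mean on an array lay on both sides of 0, at 0.19, -1.09, -0.66 and 0.11 in replicates 1 to 4. The immune mean was 1.09, 1.00, -0.05 and 1.96 on the same arrays. The study's brain list itself named all 5 neuron markers and all 3 muscle genes. It also named 3 of the 4 immune genes, 2 of the 3 eye genes read in brains and 2 of the 6 fat body genes. Nothing is read from the direction of genes chosen by those values. The part of these markers in the brain values of the 4 genes was not tested.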

How the data were processed

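The deposited table holds 1 log2 ratio, mated over virgin, per row and array for 20 arrays, normalized by the authors. Of 15776 rows, 32 controls were left out, and 0 columns were unused. The submitters' processing notes name limma. No source used here gives the scanner, background correction, normalization method or rule for empty cells. Gene names are not in the table. Rows were named by matching the mean ratio (relative tolerance 2e-05) and degrees of freedom of the study's lists of leading genes to each experiment's arrays; 496 of 500 entries matched, naming 389 genes. Plates 2 to 30 (11136 rows) held the same gene in every experiment. On other plates names were used within heads at 0-2 and 24 h, or within heads at 48 and 72 h and brains. Current symbols come from RefSeq's gene table.

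Rows with at least 2 values were tested with limma 3.58.1 (lmFit and eBayes), with Benjamini-Hochberg adjustment over all rows and a threshold of 0.05. Means and differences of head times came from 1 fit of the 16 head arrays on plates 2 to 30, with no replicate block. The scripts were tested on simulated data. Correlations used exact permutation below 10 arrays and 100000 permutations otherwise, two-sided, with no regard to head time or dye orientation. The text names the 4 genes, list members with an unadjusted p under 0.05 or at most 4 others, the 3 named rows most like each gene and up to 2 genes per marker list. All muscle and neuron markers and all comparison genes are named in addition. The 4 genes and the lists were chosen with earlier results of these data known. The labels call the arrays of an experiment biological replicates. Alternatives were centring, scaling, a dye term, at least 3 values, all plates, a replicate block, all 20 arrays in 1 fit and leaving out each replicate. The fits of heads at 48 and 72 h alone, and the 72 h means over replicates 1 and 3, were added after the data were seen.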

Additional observations from a re-analysis of the deposited data

Results flagged for a closer look

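The values of orb2 were all above 0 in heads at 0-2 h (3 arrays) and all below 0 in heads at 24 h (3 arrays), a difference of -0.75 on the log2 scale for 24 h minus 0-2 h. That difference had an unadjusted p of 0.0123 and an adjusted p of 0.164 in limma. Of all rows, 15.9% had an unadjusted p under 0.05 in it, and the dye orientations were not balanced between the times. The orb2 values at 0-2 h were also all on the other side of 0 from the 4 brain arrays, with a difference of -1.07 for brain minus head. The heph values were all above 0 in heads at 48 h (3 arrays) and all below 0 in brains (4 arrays), with a difference of -1.02 for brain minus head. The last 2 differences were not tested, since the brain values chose the genes and so set the brain side below 0 beforehand. They also compare brains at 24 h with heads at other times. The share of all rows with such separations of sign is not given here. None of the 9 groups of 4 arrays had an array set apart by Dixon's criterion.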

How the results depend on the processing

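None of the 4 genes was called in heads under any of the alternatives run (93 of 93 counts stayed at 0). The size of the heph means did depend on a dye term, with 0.05 at 0-2 h (0.14 as reported), 0.78 at 24 h (0.35) and 0.50 at 48 h (0.38). Each of these means had only 1 array in 1 of the dye orientations. Leaving out 1 brain array gave -0.69 to -0.58 for bru-3, -0.73 to -0.46 for heph, -0.74 to -0.47 for orb2 and -0.85 to -0.53 for sm. Head values near 0 changed sign with the setting. Scaling the arrays to one spread gave 0.076 for bru-3 at 24 h, 0.0081 for orb2 at 72 h and -0.058 for bru-3 at 72 h minus 24 h. A dye term gave -0.016 for bru-3 at 72 h and -0.10 for bru-3 at 72 h minus 24 h. Centring each array gave -0.076 for bru-3 at 24 h minus 0-2 h.

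Leaving out 1 array changed the sign of further values. The ranges for bru-3 were -0.057 to 0.046 at 72 h, -0.21 to 0.059 for the mean of head times, -0.51 to 0.55 for 24 h minus 0-2 h, -0.73 to 0.33 for 48 h minus 24 h, -0.0081 to 0.11 for 72 h minus 0-2 h and -0.50 to 0.56 for 72 h minus 24 h. Those for heph were -0.51 to 0.82 at 24 h, -0.10 to 0.086 at 72 h, -0.0053 to 0.33 for the mean of head times, -0.65 to 0.68 for 24 h minus 0-2 h, -0.43 to 0.89 for 48 h minus 24 h and -0.86 to 0.46 for 72 h minus 24 h. Those for orb2 were -0.15 to 0.16 at 72 h, -0.026 to 0.13 for the mean of 48 and 72 h and -0.25 to 0.056 for 72 h minus 48 h. For sm at 72 h the range was -0.14 to 0.093. The cause was not tested.

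The replicate numbers were not taken as pairing the samples. Deviations of same-numbered head arrays correlated at a median of 0.14 (-0.31 to 0.47; 13 of 24 over 0.1), other numbers of the same dye orientation at 0.16 and the opposite orientation at -0.13. With the replicate block the head means were -0.11 for bru-3, 0.24 for heph and 0.08 for orb2, with adjusted p of 0.664, 0.413 and 0.652 in limma, and 126 of 1616 rows were called, against 132 of 1621. For CG13900 at 48 and 72 h the replicate block gave 0.47 with an adjusted p of 0.0809.

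Counts of rows called, over the rows each setting could test, varied more: 0 to 47 in heads at 0-2 h (3 as reported), 0 to 81 (1) a day after mating, 14 to 104 at 48 h (74), 2 to 47 in the 72 h heads (5), 0 to 6 in brains (0), 102 to 160 for the mean of head times (132) and 84 to 214 for that of 48 and 72 h (181). For differences from 0-2 h the 24 h heads gave 16 to 58 (21), the 48 h heads 11 to 31 (25) and the 72 h heads 1 to 3 (1). For 48 h minus 24 h, 72 h minus 24 h and 72 h minus 48 h they were 0 to 9 (0), 3 to 19 (6) and 0 to 10 (4). The rows tested differed between settings, so these counts are not shares of 1 set. The 81 at 24 h came from the fit of all 20 arrays, over 1471 rows, against 4140 as reported. Each 47 came from the dye term, over 2556 rows at 0-2 h (3871 as reported) and 4922 at 72 h (6416). The dye term could not be fitted for bru-3 at 0-2 and 24 h, nor could sm enter fits that need the early heads. Few filled cells limit bru-3 in heads.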
